A study of Rattus norvegicus with 24 samples.

Results

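The 39 genes described here are interferon-stimulated genes, transcripts that cells raise when an interferon reaches its receptor. They were chosen by symbol from a list of names, with no threshold on a measured value. The list was made with earlier results of these data known. All 39 were found among the 32883 genes of the count table, each as 1 gene. The series holds messenger RNA sequencing of liver, brain, thymus and spleen from Sprague-Dawley rats, an outbred laboratory stock, aged 7 months. In each tissue 3 libraries came from animals labelled SAM-exposed and 3 from Sham animals, which makes 24 libraries in 8 groups. The series title names PCB exposure (polychlorinated biphenyls, persistent industrial chemicals) while the treatment label says SAM, and the exposed group is called SAM here. Liver and brain libraries came from SAM animals 1, 2 and 3, and thymus and spleen libraries from SAM animals 1, 3 and 5. Sham animals were numbered 13 to 17. Dose, route, duration and sex are not given in the labels, and neither is a batch or sequencing date. The labels do not say outright that 1 number in several tissues is the same rat or that the samples of a group are separate animals, so p-values measure the spread between these libraries.

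Type I interferons signal through the kinases Jak1 and Tyk2 to a complex that holds Stat2 and Irf9 and binds the interferon-stimulated response element (ISRE) in the promoters of its targets. Interferon gamma acts on promoters through the gamma-activated site (GAS). The targets detect viral nucleic acid, block viral replication, tag proteins with Isg15, or feed back on the pathway, and resting immune tissues hold a low, constant level of many of them.

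Promoters of 29 of the 39 genes were found in RefSeq's rat assembly GRCr8, each as 250 bases before and 50 bases after the gene's start. Those of Oas2, Mx2, Isg15, Ifit1, Ifit2, Usp18, Ddx58, Dhx58, Zbp1 and Rtp4 were not used here. The ISRE letters GAAANNGAAA, or TTTCNNTTTC on the other strand, stood in 19 of the 29 (65.5%) and in 3.92% of all 33469 promoters of that length. The GAS letters TTCNNNGAA, which read the same on both strands, stood in 8 of the 29 (27.6%) and in 8.87% of all promoters, and 5 of the 29 genes held both. The stretches printed here belong to genes with the lowest p-values in spleen, liver or brain, and to Irgm, which has the same spacing as Igtp. Each runs 5′ to 3′ on the gene's strand, ends before the gene's start, and has its matches to either motif in capitals.
Parp14, chr11:78408033-78408092, plus strand: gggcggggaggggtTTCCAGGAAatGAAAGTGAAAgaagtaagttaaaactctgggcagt
Igtp, chr10:42874919-42874978, plus strand: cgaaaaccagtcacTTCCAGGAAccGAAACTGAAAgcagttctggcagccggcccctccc
Irgm, chr10:33742579-33742637, minus strand: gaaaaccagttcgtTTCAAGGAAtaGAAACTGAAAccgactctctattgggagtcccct
Rsad2, chr6:48788233-48788292, minus strand: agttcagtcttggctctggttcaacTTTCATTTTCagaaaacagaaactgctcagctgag
Ifih1, chr3:67683993-67684052, minus strand: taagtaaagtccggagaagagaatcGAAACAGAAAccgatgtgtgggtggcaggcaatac
Gbp2, chr2:234005671-234005726, plus strand: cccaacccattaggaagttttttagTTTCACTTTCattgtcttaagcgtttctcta
Irf1, chr10:38417768-38417826, plus strand: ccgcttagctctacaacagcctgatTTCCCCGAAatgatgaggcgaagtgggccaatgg
Ifi47, chr10:33798623-33798681, plus strand: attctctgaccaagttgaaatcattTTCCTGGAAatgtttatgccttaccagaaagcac

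In Parp14, Igtp and Irgm a GAS match ended 2 bases before an ISRE match. Rsad2, Ifih1 and Gbp2 held the ISRE letters and no GAS match in these stretches, while Irf1 and Ifi47 held the GAS letters alone. The promoters of Cmpk2, Herc6, Ifi35, Mx1, Oasl, Parp9 and Stat2 held neither motif in these windows. Such matches describe the letters and do not show that a factor binds there. The starts of Rsad2 and Cmpk2 lie 14730 bases apart on opposite strands of chromosome 6, and those of Parp9 and Dtx3l 1214 bases apart on opposite strands of chromosome 11.

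Library totals ran from 12851169 to 20124738 counts, of which the 39 genes took 0.352 to 0.498% in spleen, 0.164 to 0.210% in thymus, 0.171 to 0.236% in liver and 0.0392 to 0.0579% in brain. Markers of each tissue were high in its own libraries: albumin and the other hepatocyte markers summed to at least 126900 CPM (counts-per-million, scaled by TMM) in liver and at most 76.5 in the other tissues, and neuronal and glial markers to at least 8324 CPM in brain. Early T cell and epithelial markers summed to at least 4751 CPM in thymus, and B cell markers to at least 3022 CPM in spleen. Some libraries stood apart. The liver library of SAM 1 had a mitochondrial share of 17.8%, where the other liver libraries had 5.71 to 8.07%, and the brain libraries of SAM 1 and SAM 2 held olfactory bulb markers at 472 and 378 CPM, against 90.8 to 104 CPM in the other 4. Brain SAM 3 held erythroid markers at 463 CPM and endothelial markers at 231 CPM, against 137 to 202 and 128.5 to 167 CPM in the other brain libraries. Thymus Sham 15 had a mitochondrial share of 8.18%, against 2.945 to 5.64% in the other thymus libraries, and held liver markers at 76.5 CPM and erythroid markers at 210 CPM, against 3.4 to 37.6 and 46.8 to 158 CPM. In bulk tissue, fewer cells of a type and less RNA per cell cannot be told apart.

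None of the 39 genes passed the edgeR quasi-likelihood test between SAM and Sham in any tissue at an adjusted p of 0.05 over all genes. Nor did any gene of the whole table, so the background share was 0% in each tissue. DESeq2 called 0 of the 39 in each tissue as well. Of the 39 tested in spleen, 36 had a positive log2 fold change (SAM minus Sham), with a median of 0.21, against 50.8% of all 14530 genes tested and a median of 0.00. In liver 20 of 36 were positive, with a median of 0.15, against 52.2% and 0.02 over 12130 genes. In brain 23 of 35 were positive (median 0.11), against 51.4% and 0.01 over 15126 genes. In thymus 16 of 38 were positive (median -0.02), against 49.5% and 0.00 over 15036 genes. The genes of 1 library share that library, so these counts are a description and not a test.

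**Figure D1:**
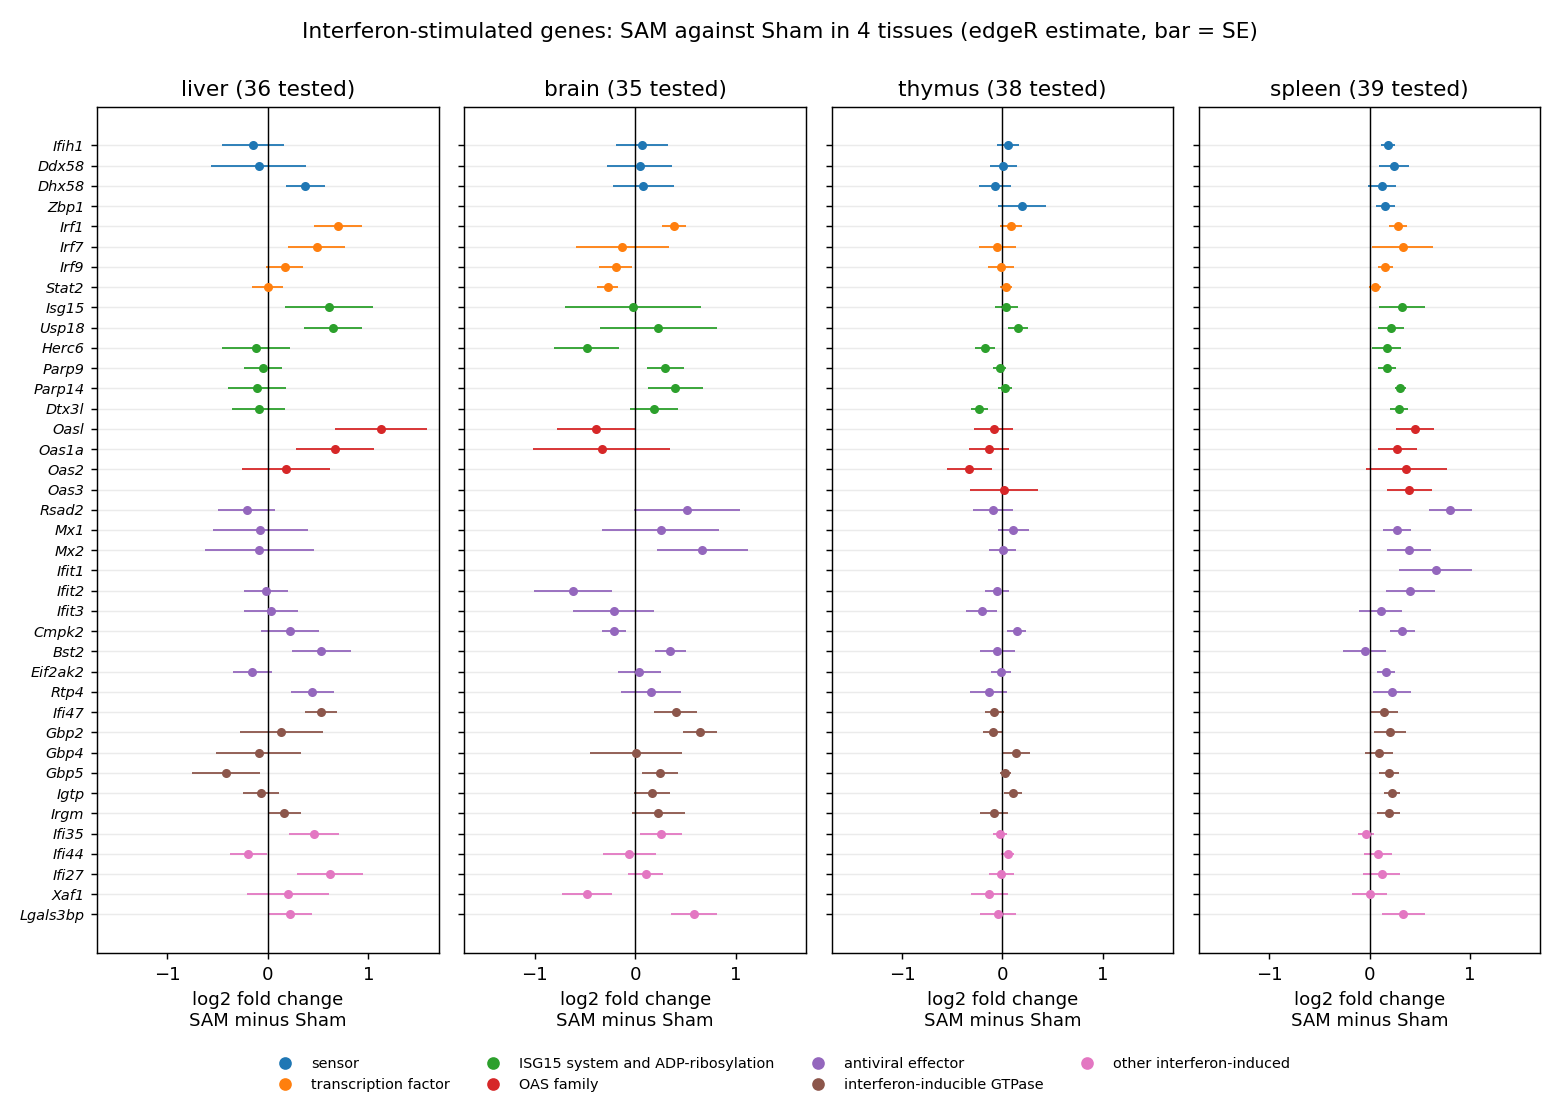
Log2 fold change (SAM minus Sham, horizontal axis) of each interferon-stimulated gene that passed the low-count filter, by tissue and coloured by role, with bars for the standard error. Spleen points lie to the right of 0 for 36 of 39 genes, while thymus points lie close to 0 on both sides.

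Spleen, the blood-filtering lymphoid organ, gave the most one-sided pattern. By role, positive values were held by 4 of 4 sensors of viral nucleic acid, 4 of 4 transcription factors, 6 of 6 genes of the Isg15 system and ADP-ribosylation, 4 of 4 oligoadenylate synthetase genes, 6 of 6 interferon-inducible GTPases, 9 of 10 antiviral effectors and 3 of 5 others. At an unadjusted p under 0.05, 8 genes were higher in SAM (background 2.22% of all genes) and 0 were lower (1.89%). In 6 of the 39, every SAM library lay above every Sham library (background 4.47%), and in 0 every one lay below (4.74%). The lowest adjusted p among the 39 was 0.967. The largest of the spleen differences was in Rsad2 (log2 fold change 0.80), and the smallest p belonged to Parp14.

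Parp14 (ENSRNOG00000023334), an ADP-ribosyltransferase that modifies proteins in the interferon response, was measured at 223, 214 and 208 CPM in SAM animals 1, 3 and 5 and at 169, 177 and 177 CPM in Sham animals 14, 15 and 17. The groups did not overlap, and the spread inside each was small. The means were 215 ± 7.37 and 174 ± 4.83 CPM (SD, n = 3 each), a log2 fold change of 0.30 ± 0.06 (SE), with an edgeR unadjusted p of 0.000796 and an adjusted p of 0.967. Leaving out each library in turn kept the estimate between 0.27 and 0.33. Dtx3l, a ubiquitin ligase that works with Parp9, was at 44.8, 37.6 and 38.8 CPM in SAM and 32.4, 32.2 and 34.4 CPM in Sham (0.29 ± 0.09). These groups did not overlap either, and SAM 1 was the highest of the 6. Parp9 itself overlapped, at 110 to 131 CPM in SAM and 102 to 120 CPM in Sham (0.17 ± 0.09). The other members of the Isg15 system overlapped too. Isg15, the ubiquitin-like modifier, ran from 28.4 to 46.3 CPM in SAM and from 22.7 to 37.5 CPM in Sham (0.32 ± 0.23), and Usp18, the protease that removes it, from 42.3 to 60.2 and from 40.6 to 45.9 CPM (0.21 ± 0.13). Herc6, the rodent ligase for Isg15, had a log2 fold change of 0.17 ± 0.14.

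Rsad2 encodes viperin, an enzyme that makes a chain-terminating nucleotide for viral polymerases, and Cmpk2 supplies a nucleotide for that reaction. Rsad2 was at 150, 238 and 154 CPM in SAM and at 131, 85.2 and 95.1 CPM in Sham. All 3 SAM libraries lay above all 3 Sham libraries, with SAM 3 far above the rest, and the log2 fold change was 0.80 ± 0.21 (edgeR unadjusted p 0.00588, adjusted p 0.967). It was 0.55 without SAM 3 and 1.01 without Sham 14. Cmpk2 was at 46.2, 52.3 and 39.3 CPM in SAM and 40.6, 32.8 and 37.0 CPM in Sham, where SAM 5 lay below Sham 14 (0.32 ± 0.12). The dynamin-like antiviral GTPases Mx1 (299 to 434 against 274 to 344 CPM, 0.27 ± 0.14) and Mx2 (190 to 337 against 174 to 258 CPM, 0.39 ± 0.22) overlapped between the groups. So did Ifit2, Ifit3 and Ifit1, which bind viral RNA. Ifit2 had a log2 fold change of 0.41 ± 0.25, Ifit3 of 0.11 ± 0.22, and Ifit1 of 0.66 ± 0.36, the last on 7 to 25 counts per library. The estimate for Ifit3 turned negative (-0.18) without SAM 1. Bst2, the tether that holds virions at the cell surface, was the effector that was not positive (-0.05 ± 0.22).

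**Figure D2:**
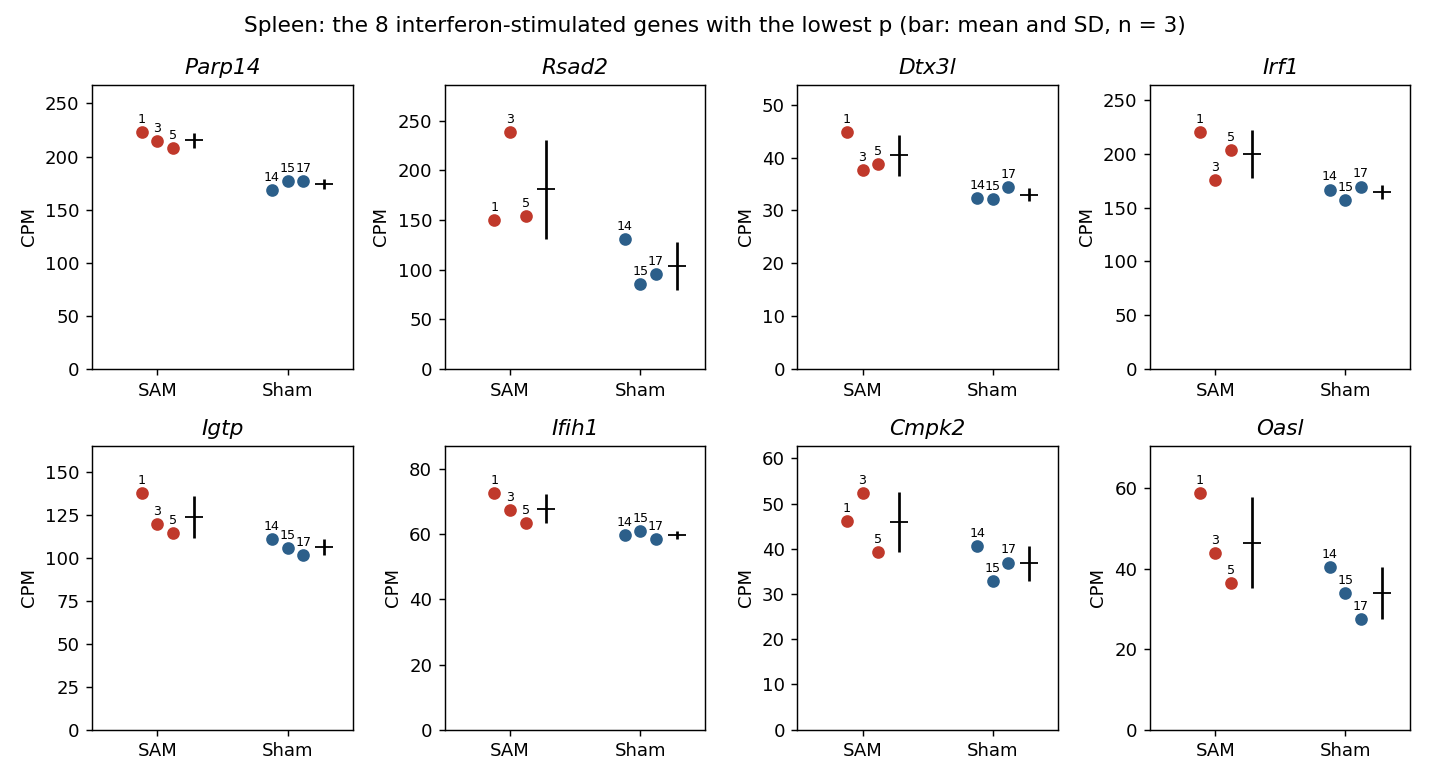
Expression (CPM, vertical axis from 0) of the 8 interferon-stimulated genes with the lowest p in spleen, 1 point per library with its animal number, and bars for mean and SD (n = 3). Groups do not overlap for Parp14, Rsad2, Dtx3l, Irf1, Igtp and Ifih1, and overlap for Cmpk2 and Oasl.

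Among transcription factors in spleen, Irf1, which drives many interferon gamma targets, was at 220, 176 and 204 CPM in SAM and 167, 157 and 170 CPM in Sham, without overlap (0.28 ± 0.09). Irf7, which amplifies type I interferon production, was at 545, 361 and 304 CPM in SAM and 474, 268 and 222 CPM in Sham. Here the 2 groups overlapped widely, with animal 1 highest in SAM and animal 14 highest in Sham (0.33 ± 0.30). Stat2 (258 to 271 against 244 to 270 CPM, 0.05 ± 0.06) and Irf9 (98 to 104 against 82.9 to 99.8 CPM, 0.16 ± 0.08), the partners in the ISRE-binding complex, overlapped. Of the sensors, Ifih1 (MDA5, a receptor for long double-stranded RNA) was at 72.7, 67.5 and 63.5 CPM in SAM and 59.7, 60.9 and 58.6 CPM in Sham. Its groups did not overlap (0.18 ± 0.07). Ddx58 (RIG-I), Dhx58 (LGP2) and Zbp1, a sensor of left-handed nucleic acid, had log2 fold changes of 0.24, 0.12 and 0.16 with overlapping groups.

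Igtp, an immunity-related GTPase, was at 138, 120 and 114 CPM in SAM and 111, 106 and 102 CPM in Sham spleen, without overlap (0.22 ± 0.08). Its relatives Irgm (0.19 ± 0.12) and Ifi47 (0.14 ± 0.14) overlapped, as did the guanylate-binding proteins Gbp2 (131 to 165 against 100.5 to 151 CPM, 0.20 ± 0.16), Gbp4 (0.09 ± 0.14) and Gbp5 (0.19 ± 0.10), which attack vacuoles that hold pathogens. Oasl was at 58.9, 44.0 and 36.6 CPM in SAM and 40.5, 33.9 and 27.6 CPM in Sham, so SAM 5 lay below Sham 14 (0.45 ± 0.19). The log2 fold changes of the synthetases that make 2′-5′ oligoadenylates and so activate RNase L were 0.27 for Oas1a (26.7 to 40.1 against 25.1 to 36.8 CPM), 0.36 for Oas2 and 0.39 for Oas3. Besides Bst2, the genes that were not positive were Ifi35 (-0.04 ± 0.08) and Xaf1, which rounds to 0 with an SE of 0.18.

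The mean log2 CPM over the 39 genes gives 1 value per spleen library. It was 6.35, 6.22 and 6.01 in SAM animals 1, 3 and 5 and 6.14, 5.87 and 5.87 in Sham animals 14, 15 and 17. SAM 5 lay below Sham 14, so the groups overlapped, and the difference of 0.235 compares with a pooled SD of 0.165. With each library left out in turn, 33 to 39 of the 39 genes were positive. The median log2 fold change was lowest without SAM 1 (0.13, 33 positive) and highest without SAM 5 (0.30, 38 positive).

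Markers of other cells were measured in the same spleen libraries. T cell markers were higher in SAM for 6 of 6 genes and summed to 571 to 674 CPM in SAM and 480 to 566 CPM in Sham, which did not overlap. B cell markers summed to 3022 to 3820 and 3274 to 4027 CPM, monocyte and macrophage markers to 2411 to 2760 and 2228 to 2933 CPM, and markers of plasmacytoid dendritic cells, the chief makers of type I interferon, to 1147 to 1301 and 1244 to 1265 CPM. These 3 sums overlapped, and 0 of 6 plasmacytoid markers had a positive fold change. Natural killer and cytotoxic markers (171 to 209 against 157 to 199 CPM) and erythroid markers (38000 to 47790 against 27590 to 58190 CPM) overlapped too. No marker of these lists was at 0 in all spleen libraries. The part of the T cell difference in the values above was not tested.

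In liver, 3 of the 36 genes tested were higher in SAM at an unadjusted p under 0.05 (background 1.79%), and 0 were lower (0.907%). In the same 3 genes every SAM library lay above every Sham library (background 5.19%), in 0 every one lay below (5.63%), and the lowest adjusted p was 0.802. Ifi47 was at 190, 154 and 152 CPM in SAM animals 1, 2 and 3 and at 103, 123 and 118 CPM in Sham animals 13, 14 and 15. The groups did not overlap and the log2 fold change was 0.53 ± 0.16 (edgeR unadjusted p 0.0118). Irf1 was at 55.8, 36.0 and 32.3 CPM in SAM and 21.1, 28.6 and 26.6 CPM in Sham (0.70 ± 0.24). Without SAM 1, the highest of the 6 libraries, its estimate was 0.43 ± 0.15. Oasl was at 10.4, 8.42 and 13.4 CPM in SAM and 8.41, 4.32 and 2.06 CPM in Sham (1.13 ± 0.46), and SAM 2 and Sham 13 were almost equal there.

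The next 3 liver genes by p overlapped between the groups. Usp18 was at 14.8, 13.9 and 18.1 CPM in SAM and 8.47, 14.4 and 6.83 CPM in Sham (0.65 ± 0.29). Rtp4, an interferon-induced antiviral protein, was at 84.2, 50.4 and 75.5 against 52.8, 55.5 and 46.0 CPM (0.44 ± 0.21). Dhx58 was at 15.2, 11.7 and 16.2 against 10.6, 12.7 and 9.91 CPM (0.37 ± 0.19). Sham 14 was the highest Sham library for all 3. Isg15 ran from 9.73 to 30.6 CPM in SAM and 7.98 to 17.9 in Sham (0.61 ± 0.44), Irf7 from 28.2 to 42.1 and 17.6 to 35.1 (0.49 ± 0.28), and Oas1a from 13.2 to 28.4 and 7.98 to 18.6 (0.67 ± 0.39). Mx1 (3.02 to 8.92 against 4.17 to 9.98 CPM, -0.08 ± 0.47) and Ifit3 (4.11 to 6.26 against 4.17 to 5.82 CPM, 0.03 ± 0.26) lay near 0. So did Gbp2 (4.11 to 13.3 against 5.44 to 9.36 CPM, 0.13 ± 0.41) and Stat2 (84.5 to 102 against 81.7 to 98.6 CPM, with an SE of 0.15). Rsad2, with the largest spleen difference, was at 2.29 to 2.66 CPM in SAM liver and 2.18 to 3.67 CPM in Sham liver (-0.21 ± 0.28). Oas3, Ifit1 and Zbp1 had too few counts in liver to be tested, and Ifit1 had 0 counts in all 6 libraries.

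The library of SAM 1, with its high mitochondrial share, moved the liver estimates in both directions. Ifi27, a small mitochondrial membrane protein, was at 1174 CPM in SAM 1 and at 508 and 577 CPM in the other SAM libraries, against 437 to 589 CPM in Sham. Bst2 was likewise at 756 CPM in SAM 1 and at 349 and 448 CPM in the other SAM libraries. Gbp2 was lowest in SAM 1, at 4.11 CPM against 5.44 to 13.3 CPM elsewhere. Larger drops in SAM 1 were in Ddx58 (6.31 against 20.8 to 31.0 CPM elsewhere) and Ifih1 (11.8 against 24.05 to 28.6 CPM). Parp14 and Dtx3l were lowest in SAM 1 as well, at 20.9 and 18.55 CPM. Without SAM 1, 33 of the 38 genes then tested were positive, with a median of 0.17, and none was called. Without Sham 14, 25 of 37 were positive (median 0.30). The mean log2 CPM per library was 4.18, 4.37 and 4.48 in SAM and 4.12, 4.43 and 4.0 in Sham, which overlapped. Erythroid markers summed to 1128, 484 and 777 CPM in SAM liver and 345 to 441 CPM in Sham liver without overlap. Monocyte and macrophage markers summed to 163 to 527 and 149 to 324 CPM, with overlap, and of the plasmacytoid list Ly6d was at 0 in all liver libraries. Their part in the liver values was not tested.

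**Figure D3:**
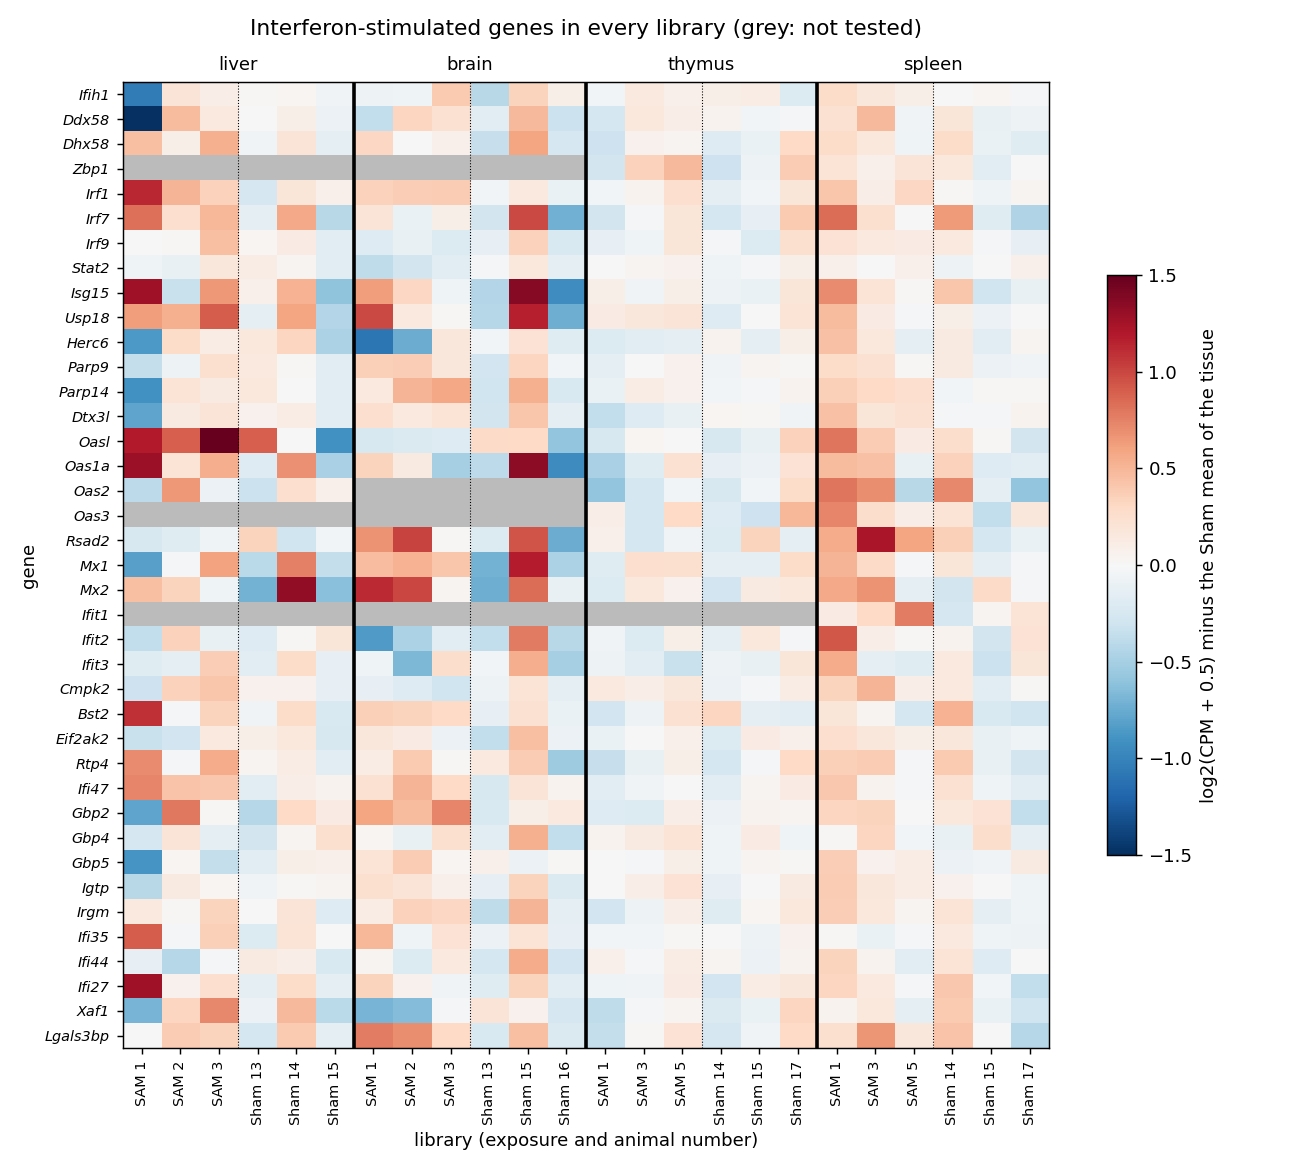
Level of each interferon-stimulated gene in every library, as log2(CPM + 0.5) minus the mean of the Sham libraries of the same tissue (colour scale capped at 1.5 either way, grey where not tested). Sham 15 in brain is high over many genes, and thymus libraries stay close to their Sham mean. SAM 1 in liver is high for Ifi27 and Bst2 and low for Gbp2, Ddx58, Ifih1, Parp14 and Dtx3l.

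Brain gave 4 genes at an unadjusted p under 0.05, 3 of them higher in SAM (background 11.9%) and 1 lower (8.61%). Every SAM library lay above every Sham library in 4 genes (background 11.6%) and below in 1 (12.2%). Of the 35 genes tested, the share above was thus close to that of all genes, and the share below was smaller. The lowest adjusted p was 0.221. Gbp2 was at 7.50, 6.90 and 8.35 CPM in SAM animals 1, 2 and 3 and 4.02, 5.15 and 5.36 CPM in Sham animals 13, 15 and 16, with no overlap (0.64 ± 0.17). Irf1 was at 10.8, 11 and 11.1 CPM in SAM and 8.10, 9.33 and 7.78 CPM in Sham, again with no overlap (0.38 ± 0.12). Stat2 was lower in SAM, at 56.5, 61.1 and 66.2 CPM against 73.0, 82.2 and 67.0 CPM (-0.27 ± 0.11), although SAM 3 and Sham 16 differed by less than 1 CPM.

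Lgals3bp, a secreted glycoprotein that binds galectins, was at 26.5, 25 and 19 CPM in SAM brain and 12.9, 21.1 and 13.1 CPM in Sham brain (0.59 ± 0.23). Bst2 was at 7.28, 7.14 and 6.97 CPM in SAM and 5.08, 6.61 and 5.15 CPM in Sham (0.35 ± 0.15). Its groups did not overlap, and neither did those of Ifi47 (2.99 to 3.75 against 2.01 to 2.91 CPM, 0.40 ± 0.21). Xaf1, which opposes an inhibitor of apoptosis, was at 3.97, 4.10 and 6.64 CPM in SAM and 7.76, 7.03 and 5.56 CPM in Sham (-0.48 ± 0.25). SAM 3 lay among the Sham libraries here. Without SAM 3, edgeR called 5896 genes of the table, where the fit with all libraries had tested 15126. Among all genes the share called was thus larger than among the 36 interferon-stimulated genes then tested, of which 5 were called. Of these Lgals3bp (0.71, adjusted p 0.0230) and Gbp2 (0.57, adjusted p 0.0377) were higher in SAM, and Stat2 (-0.34, adjusted p 0.0258), Xaf1 (-0.75, adjusted p 0.0176) and Herc6 were lower. The 2 SAM libraries left in that fit are those with the high olfactory bulb markers. The library left out is the one with the high erythroid and endothelial markers. Exposure and the sampled piece of brain cannot be told apart in that fit. The fit with all libraries holds the same 2 SAM libraries and no Sham library with such markers, so this limit bears in part on all brain values.

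The estimates of Isg15, Oas1a and Irf7 in brain were negative with all libraries and positive in the fit that left out Sham 15. Isg15 was at 8.06 CPM in Sham 15 and at 1.95 and 1.24 CPM in Sham 13 and 16, with SAM at 4.62, 3.63 and 2.67 CPM (-0.02 ± 0.68). Oas1a was at 8.24 CPM in Sham 15 and 2.12 and 1.29 CPM in the other Sham libraries, with SAM at 1.95 to 3.86 CPM (-0.33 ± 0.68). Irf7 was at 12.6 CPM in Sham 15 against 4.97 and 3.50 CPM, with SAM at 5.65 to 7.07 CPM (-0.13 ± 0.46). Sham 15 was also the highest of the 6 libraries for Mx1 (6.12 CPM, others 1.28 to 3.69) and Usp18 (12.3 CPM, others 2.94 to 10.9), whose estimates were positive with all libraries (0.25 ± 0.58 and 0.23 ± 0.58). Ifit3 was at 2.61, 1.55 and 3.40 CPM in SAM and 2.68, 4.24 and 1.80 CPM in Sham 13, 15 and 16 (-0.21 ± 0.40), with overlap. Rsad2 was at 6.30 CPM in Sham 15 and at 2.57 and 1.60 CPM in the other Sham libraries, and its SAM libraries ran from 3.08 to 6.60 CPM. Without Sham 15 the log2 fold changes were 1.2 for Isg15, 0.84 for Oas1a, 0.60 for Irf7, 1.30 for Mx1 and 1.14 for Usp18, none of them called. In that fit 30 of 36 genes were positive (median 0.43), while without Sham 13 or without Sham 16 it was 17 of 36, with medians of -0.05 and -0.04. The mean log2 CPM over the genes was 2.88 to 2.92 in SAM and 2.53, 3.29 and 2.42 in Sham 13, 15 and 16. Microglial markers were higher in SAM for 5 of 5 genes, but their sums overlapped (46.3 to 92.9 CPM in SAM and 61.1 to 68.9 CPM in Sham). In Sham 15 they summed to 61.1 CPM, the lowest Sham value. Monocyte and macrophage markers were higher in SAM for 7 of 7 tested genes. Their sums of 142 to 244 CPM in SAM and 159 to 192 CPM in Sham overlapped as well. Of the plasmacytoid list Siglech was at 0 in all brain libraries, and 3 of the 6 genes passed the low-count filter. The list summed to 102 to 114 CPM in SAM and 86.7 to 96.1 CPM in Sham. Which brain cells hold these transcripts was not tested, so the sum does not count plasmacytoid cells. Neuronal and glial markers summed to 8324 to 8845 CPM in SAM and 10040 to 11340 CPM in Sham. The sums of the plasmacytoid list and of the neuronal and glial markers stood apart between the groups. The part of any of these markers in the brain values was not tested. Oas2, Oas3, Ifit1 and Zbp1 were too low in brain to be tested.

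Thymus, the organ in which T cells mature, had the narrowest range of estimates, from -0.33 to 0.20. Only Dtx3l had an unadjusted p under 0.05 there, and it was lower in SAM (background 4.48%), while 0 were higher (1.66%). It was at 29.6, 33.5 and 35.5 CPM in SAM animals 1, 3 and 5 and 39.5, 39.1 and 37.1 CPM in Sham animals 14, 15 and 17 (-0.23 ± 0.09, edgeR adjusted p 0.780). The groups did not overlap, and Dtx3l was the 1 gene of the 38 tested whose SAM libraries all lay below Sham (background 6.96%), with 0 whose SAM libraries all lay above (4.97%). Herc6 was at 17.3, 17.7 and 18.1 CPM in SAM and 20.6, 18.0 and 21.2 CPM in Sham (-0.17 ± 0.10). Usp18 was at 53.0, 55.1 and 55.8 CPM in SAM and 42.5, 48.7 and 56.3 CPM in Sham (0.15 ± 0.10). Cmpk2 was at 20.2, 19.6 and 20.6 against 17.1, 17.9 and 19.7 CPM (0.14 ± 0.09), and SAM 3 lay just under Sham 17. Oas2 was at 3.39, 4.38 and 5.19 CPM in SAM and 4.46, 5.22 and 6.61 CPM in Sham (-0.33 ± 0.23). Ifit3 was at 6.96, 6.51 and 5.76 CPM in SAM and 6.99, 6.78 and 8.44 CPM in Sham (-0.21 ± 0.16). Both overlapped, as did the other named targets. Isg15 ran from 15.4 to 17.1 CPM in SAM and 14.9 to 18.25 in Sham (0.04), Mx1 from 77.05 to 104 and 79.1 to 106 (0.11), and Irf7 from 46.0 to 63.6 and 46.3 to 73.2 (-0.05). Irf1 ran from 85.1 to 104 CPM in SAM and 79.6 to 100.2 in Sham (0.08), Gbp2 from 44.9 to 55.8 and 48.7 to 53.7 (-0.10), and Oas1a from 10.3 to 17.1 and 13.3 to 17.03 (-0.13). Stat2 had a log2 fold change of 0.04 and lay between 95.6 and 106.5 CPM in the 6 thymus libraries. The mean log2 CPM per library was 4.82 to 5.07 in SAM and 4.84 to 5.11 in Sham. T cell markers summed to 4562 to 4758 CPM in SAM thymus and 4185 to 4436 CPM in Sham thymus without overlap, and monocyte and macrophage markers to 435 to 636 and 546 to 652 CPM with overlap. Their part in the thymus values was not tested.

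**Figure D4:**
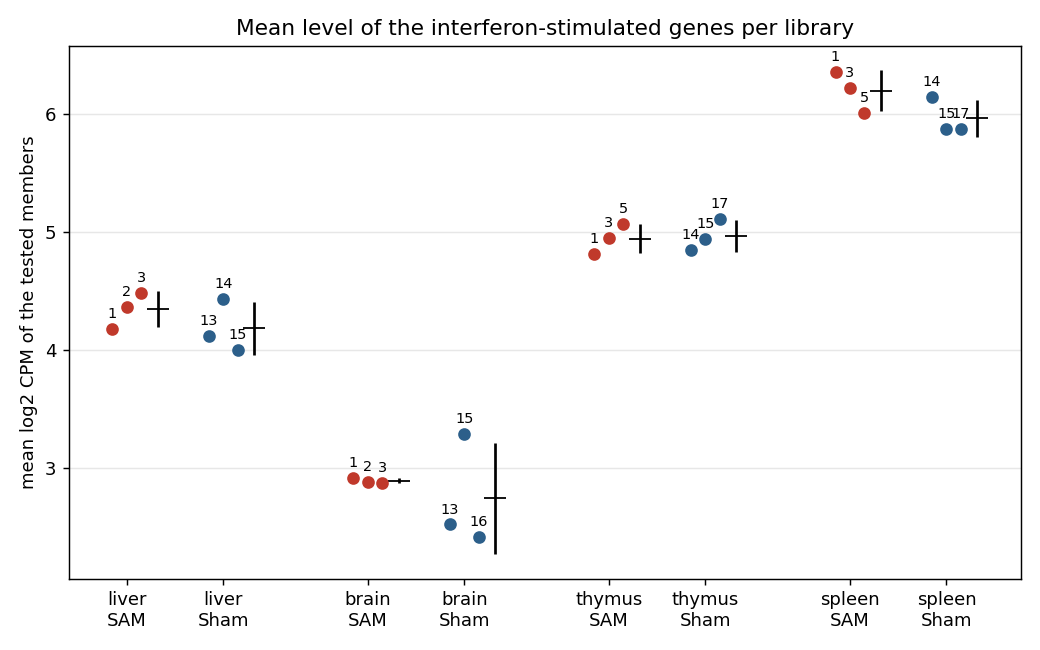
Mean log2 CPM (vertical axis) of the interferon-stimulated genes tested in each tissue, 1 point per library with its animal number, and a bar for mean and SD (n = 3). SAM and Sham overlap in all 4 tissues, and the number of genes averaged differs between tissues (39 in spleen, 38 in thymus, 36 in liver and 35 in brain), so levels are compared within a tissue.

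Across tissues, 35 genes were tested in all 4. Irf1 and Usp18 had positive fold changes in 4 of 4 tissues, 17 genes in 3, 13 in 2 and 3 in 1. None was negative in all 4. Per tissue, 49.5 to 52.2% of all genes were positive, and no share over all genes is given for the counts across tissues. Every SAM library lay above every Sham library for Irf1 in spleen, liver and brain, at log2 fold changes of 0.28, 0.70 and 0.38. Genes placed in this way made up 4.47, 5.19 and 11.6% of all genes in these tissues. In thymus Irf1 was at 0.08 ± 0.11 with overlap. Tissues of 1 animal number may share an animal, so these are not independent repeats. Whether the difference between SAM and Sham varied with tissue was asked of a joint edgeR model of all 24 libraries, through its 3 exposure-by-tissue terms. That model called 2 of 17623 genes (0.0113%) and 0 of the 39, whose lowest adjusted p was 0.528. At an unadjusted p under 0.05 were Oasl (0.0463) and Ifi47 (0.0465), 2 of the 39 against 9.2% of all genes. No difference between tissues was therefore shown for any of the 39.

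The other genes of the pathway came from a list of 105 symbols, of which 97 were found. As ligands, interferon alpha, beta, epsilon, kappa and lambda genes had at most 3 counts in any library. None of the pathway genes was called in any tissue. In spleen 63 of 86 tested genes were positive (50.8% of all genes). At an unadjusted p under 0.05, 9 were higher (2.22% of all genes) and 3 lower (1.89%). The higher were led by Nlrc5, the activator of MHC class I genes (113 to 120 CPM in SAM and 82.4 to 90.4 CPM in Sham, 0.42 ± 0.06, adjusted p 0.940). Among the others were Tap1, the peptide transporter of class I presentation (0.20), the T cell attractant Cxcl9 (0.26), Uba7, which activates Isg15 for conjugation (0.22), Samhd1, a restriction factor that removes nucleotides (0.29), Ifi27l2b (0.47), Mov10 (0.21) and the kinase gene Ikbke (0.20). Lower were Cxcl11 (-0.63 ± 0.19), a ligand of the same receptor as Cxcl9, the phosphatase gene Ptpn6 (-0.17) and the adaptor Mavs (-0.20), which relays signals from RIG-I and MDA5.

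Liver had 54 of 79 pathway genes positive (52.2% of all genes), of which 4 were higher at an unadjusted p under 0.05 (1.79%) and 0 lower (0.907%). The 4 were Psmb9 (0.70), Psmb10 (0.55), both subunits of the immunoproteasome, Tapbp (0.48), which loads class I molecules, and Trim34 (0.45). Brain had 54 of 81 positive (51.4% of all genes), with 18 higher and 2 lower at that level. Among these were B2m, the light chain of class I molecules (0.42), Ifitm3 (0.58), which blocks virus entry, and the receptor subunit Ifnar2 (0.27), while Jak1 (-0.31) was among the lower. The brain shares stand beside a background of 11.9% of all genes higher and 8.61% lower. Thymus had 38 of 86 positive (49.5% of all genes), with 0 higher (1.66%) and 3 lower (4.48%) at an unadjusted p under 0.05, a share of lower genes under that of all genes. The 3 were Tlr3 (-0.44), Irf8 (-0.35) and Slfn4 (-0.30).

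The levels of the 39 genes across tissues were compared in Sham rats. One edgeR fit over the 12 Sham libraries compared each tissue with spleen for 38 of the genes, Ifit1 being too low to test. In brain 37 of 38 were lower than in spleen and 0 higher, with a median log2 fold change of -3.53. Over all 17204 genes tested, 41% were lower and 41.4% higher in brain, with a median of 0.00. Zbp1 (-6.82 ± 0.31), Mx1 (-6.61 ± 0.47), Ifi47 (-5.85 ± 0.17) and Gbp4 (-5.82 ± 0.29) differed most. Mx1 was at 264, 211 and 230 CPM in Sham spleen and 1.05, 5.01 and 1.30 CPM in Sham brain, far apart in every library. Herc6 (-1.13), Ifi27 (-1.55), Stat2 (-1.71) and Ifit2 (-1.98) were the called genes that differed least. Cmpk2 was the exception, at 21.5 to 27.2 CPM in brain and 25.3 to 31.1 CPM in spleen (-0.26 ± 0.12, edgeR adjusted p 0.0578), and with library totals in place of TMM it was called lower (-0.38, adjusted p 0.00799).

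In thymus 32 of 38 were lower than in spleen and 0 higher, with a median of -1.20, against 30.7% of all genes lower and 31.6% higher. Rsad2 (-4.14 ± 0.34), Ifit3 (-3.08 ± 0.24), Gbp4 (-2.78 ± 0.22) and Irf7 (-2.67 ± 0.40) lay furthest below spleen. Rsad2 was at 101, 65.7 and 73.4 CPM in spleen and 3.90, 5.58 and 4.12 CPM in thymus. Its neighbour Cmpk2 was at 25.3 to 31.1 and 11.9 to 13.7 CPM (-1.18 ± 0.12). Parp9 (-0.54), Ddx58 (-0.72), Eif2ak2, the kinase PKR that halts translation (-0.76), and Igtp (-0.76) were the called genes that differed least. Not called were Gbp5 (-0.08 ± 0.09), Usp18 (0.02 ± 0.36), Dtx3l (0.05 ± 0.13), Lgals3bp (0.45 ± 0.24), Ifi44 (-0.33 ± 0.18) and Isg15 (-1.0 ± 0.44). Gbp5 was at 49.1 to 52.2 CPM in thymus and 49.8 to 58.9 CPM in spleen, so these levels overlapped. With library totals in place of TMM, Lgals3bp was called higher in thymus (0.63, edgeR adjusted p 0.0279) and Oas1a was no longer called lower (adjusted p 0.0671).

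Liver against spleen depended on the scaling. TMM gave the liver libraries factors of 0.430 to 0.457 and the other tissues 1.18 to 1.48. With TMM, 19 of 38 were lower in liver (background 41.2%) and 12 higher (34.9%), with a median of -0.51. With library totals alone, 30 were lower and 3 higher. The shares of all genes called are not given for that scaling, so these counts do not set the genes apart from the rest of the table. The median moved from -0.51 to -2.07 for these genes and from -0.19 to -1.75 for all genes. The 19 lower with TMM were led by Zbp1 (-5.09), Gbp4 (-4.39), Mx1 (-3.96) and Rsad2 (-3.56). Library totals moved the liver values of these and all genes down alike. These 19 therefore had to be lower under both scalings, which is no check on them. Higher under both were Bst2 (2.61 with TMM and 1.05 with totals), Igtp (2.05 and 0.49) and Ifi27 (2.02 and 0.46). Parp9, Irgm, Ddx58, Dtx3l and Rtp4, at 1.39 to 1.92, were called higher with TMM alone. Ifih1, Ifi35, Ifit2 and Ifi47 were called higher with TMM and lower with totals, so no direction is given for them. In the order of mean levels with TMM, spleen was highest for 21 of the 39 genes, liver for 16 and thymus for 2, and brain was lowest for 37. With library totals these became 30, 5 and 4, and brain was lowest for 32 and liver for 7. Ifit1 was at 0 in all Sham libraries of brain and liver, so its lowest place is a tie in both orders.

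**Figure D5:**
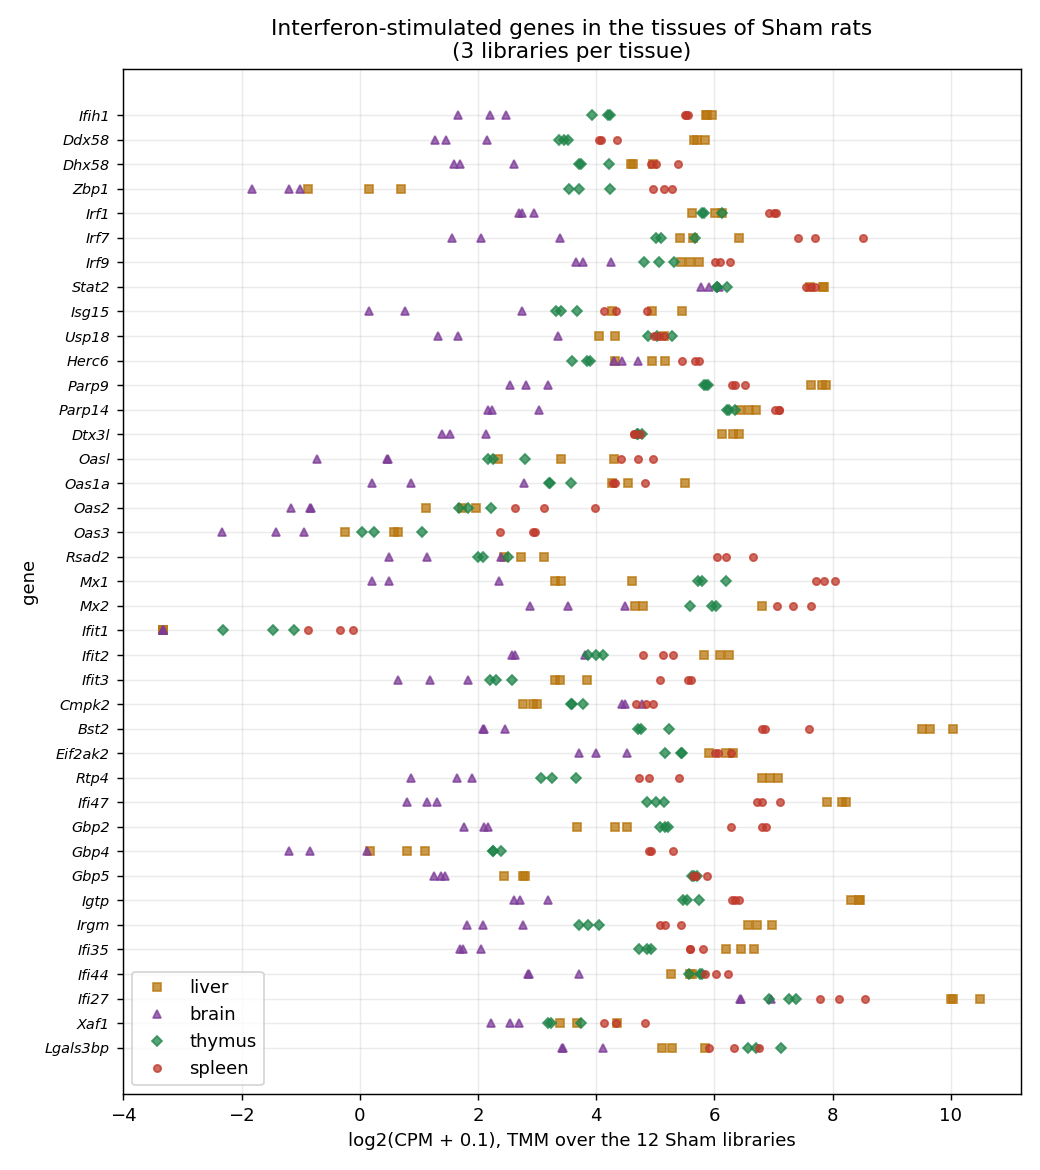
Level of each interferon-stimulated gene in the 12 Sham libraries, as log2(CPM + 0.1) with TMM scaling over these libraries (horizontal axis), 3 points per tissue. By mean, brain lies lowest for 37 of 39 genes, counting Ifit1, which was at 0 in both brain and liver. The place of the liver points relative to spleen depends on the scaling.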

How the data were processed

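Per the labels' protocols, RNA was purified on RNeasy columns and stranded TruSeq mRNA libraries were made from 500 ng of total RNA. The aligner STAR 2.2.1 and the build rn6 are named, per the submitters' processing notes. The counting tool, its strand setting and the gene models were not given in the sources used here. Counts of genes that overlap or have close copies (Mx1 and Mx2, the Gbp, Oas and Ifit genes) are therefore uncertain. The deposited values are raw counts, whole numbers without normalization by the authors, in 1 table of 32883 genes (47 without a symbol). Tissue and animal number tied each column to its sample.

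Each tissue was fitted alone with edgeR 4.0.16 in R 4.3.3 (filterByExpr, TMM, quasi-likelihood F test, Benjamini-Hochberg at 0.05 over all genes tested). SE is the log2 fold change divided by the square root of F. One fit over 24 libraries tested the interaction of exposure and tissue, and one over 12 Sham libraries compared tissues. CPM values are TMM-scaled, the score is a mean of log2 CPM with a prior count of 2, and all tests are two-sided. The tests were also run on simulated counts with known changes, and the share recovered is not reported here. Library totals of 12851169 to 20124738 counts make values well under 1 CPM imprecise. Between replicates, a chi-square of counts was 6.24 to 208.7 per degree of freedom, so none was a copy of another.

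The members, the other pathway genes and the markers were chosen with earlier results of these data known. Values in every library are given for the 6 members with the lowest p in a tissue at a mean of at least 1 CPM. Isg15, Mx1, Oas1a, Ifit3, Irf7, Irf1, Stat2, Usp18 and Gbp2 are given at least by their log2 fold change in every tissue where tested, and the 4 called members at each end of a Sham contrast are named. Other members were chosen after their values were seen. Some pathway genes are not reported here. Alternatives were RLE scaling, no low-count filter, DESeq2 1.42.0, each library left out, animal number as a block, brain SAM 1 and SAM 2 both left out, mitochondrial genes removed in liver, and, added after seeing the data, library totals without TMM for the Sham contrasts.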

Additional observations from a re-analysis of the deposited data

Results flagged for a closer look

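Dtx3l lay on opposite sides in the 2 lymphoid organs. All 3 SAM spleen libraries were above all 3 Sham spleen libraries (log2 fold change 0.29), and all 3 SAM thymus libraries were below all 3 Sham thymus libraries (-0.23), a difference of 0.522 on the log2 scale. The joint edgeR interaction test over all 4 tissues gave an unadjusted p of 0.261 and an adjusted p of 0.732 and showed no difference. It does not address these 2 organs alone, and spleen against thymus was not tested by itself.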

How the results depend on the processing

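The number of the 39 genes called was 0 in liver, thymus and spleen and in the interaction under every alternative run, and in brain it ran from 0 to 5 with 1 library left out, the 5 being without SAM 3. Counts over all genes moved more. In liver 1 gene was called with RLE scaling, 1 with no filter, 2 by DESeq2 and 0 to 1 with 1 library left out. In brain DESeq2 called 508 genes, leaving out both SAM 1 and SAM 2 gave 1, and leaving out 1 library gave 0 to 5896. In thymus no filter gave 3 and DESeq2 102. In spleen DESeq2 called 7 and leaving out 1 library gave 0 to 1. For the interaction, no filter gave 15, the DESeq2 likelihood ratio test 310, and leaving out 1 library 1 to 990 (990 without brain SAM 3, 68 without liver SAM 2).

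Only the named genes (12 to 14 a tissue) were followed through each alternative, and other members also changed sign. Among the named, the log2 fold changes that changed sign with 1 library left out ranged as follows. In liver Stat2 ran from -0.089 to 0.057, Mx1 from -0.51 to 0.46, Gbp2 from -0.38 to 0.45 and Ifit3 from -0.19 to 0.20. In brain Usp18 ran from -0.18 to 1.14, Ifit3 from -0.47 to 0.16, Isg15 from -0.45 to 1.2, Mx1 from -0.11 to 1.30, Oas1a from -0.76 to 0.84 and Irf7 from -0.46 to 0.60. In thymus Oas1a ran from -0.35 to 0.024, Irf7 from -0.18 to 0.17, Irf1 from -0.00026 to 0.18 and Isg15 from -0.020 to 0.14, and in spleen Ifit3 ran from -0.18 to 0.24. Stat2 in liver was also 0.0066 with RLE scaling and 0.0011 with mitochondrial genes removed. Without both brain SAM 1 and SAM 2, Ifit3 was 0.24 and Usp18 -0.25. Fewer libraries entered the fits that left some out, and the cause of the other changes was not tested.

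Same-numbered libraries of different tissues deviated together weakly (25 pairs, r from -0.0097 to 0.245, 9 over 0.1), and the main fits did not pair them. Their median r was 0.0515, against -0.0231 for pairs with different numbers, and 19 of 25 correlated best with their own number. Whether equal numbers mark the same rat stays unknown. With animal number as a block, 3 genes and 0 of the 39 were called in the interaction. In the Sham liver, brain and thymus contrasts the block gave 30, 38 and 34 of the 39 called. Without the block these were 31, 37 and 32. Over all 17204 genes tested, the fit without the block called 13093, 14168 and 10720 in these contrasts. Calls over all genes are not given for the fit with the block. Its counts therefore do not set the 39 apart from the other genes. With 3 libraries per group and 12851169 to 20124738 counts each, differences of the size seen in spleen did not pass over all genes.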

Other observations

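Interferon gamma (Ifng) was too low to be tested in liver, brain and spleen, and its counts were looked up after the other values were seen. Spleen libraries had 13, 3 and 24 counts in SAM animals 1, 3 and 5 and 0, 2 and 4 counts in Sham animals 14, 15 and 17, which overlap. Thymus libraries had 13, 15 and 9 counts in SAM and 8, 15 and 10 in Sham, with a log2 fold change of 0.37 ± 0.36 (edgeR unadjusted p 0.341, adjusted p 0.945). Liver libraries had 0 counts in all 6, and brain libraries had 1 count in Sham 16 and 0 elsewhere.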
